A study of Homo sapiens with 7 samples.

Results

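The 10 genes described here control or carry out the cellular response to misfolded protein in the endoplasmic reticulum (ER) and to amino acid shortage: ATF4, DDIT3, CEBPB, ASNS, TRIB3, CHAC1, ATF6, XBP1, HSPA5 and HERPUD1. They were taken by symbol, and all 10 were found among the 57773 genes of the count table. Each passed the filter on low counts, as did 16198 genes in all. The comparison is of MDA-MB-231 cells labelled KD (2 libraries) with MDA-MB-231 cells labelled parent (3 libraries). MDA-MB-231 is an established human triple-negative breast cancer line. The study concerns APE1, a base excision repair enzyme encoded by APEX1, and its binding to G-quadruplexes, which are folded structures that runs of guanine form in DNA. The labels do not spell out KD and name no agent, dose or time for these 5 libraries. Their treatment text speaks of APE1-knockout cells that were given wild-type or mutant APE1 from a doxycycline-inducible lentiviral vector and selected with blasticidin. Whether the KD libraries carry that vector, or come from 1 clone or several, is not stated, nor do the labels call the replicates separate cultures. The p-values therefore rest on the variation among these libraries, part or all of which may be technical.

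ER stress is read by sensors in the ER membrane. One of them, PERK, phosphorylates the initiation factor eIF2, as do the sensors of amino acid shortage, haem shortage and double-stranded RNA. Phosphorylated eIF2 slows translation in general while ATF4 mRNA is translated more, so ATF4 protein can rise with little change of its mRNA. ATF4 then turns on genes of amino acid supply and the factor CHOP (the product of DDIT3). The other sensors are IRE1, which splices XBP1 mRNA into its active form, and ATF6, which is cut in the Golgi to release a transcription factor. Both act on genes of ER chaperones and of the machinery that removes misfolded protein. RNA counts per gene do not show eIF2 phosphorylation, ATF4 protein, XBP1 splicing or ATF6 cleavage, none of which was measured here.

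Several of the 10 genes are known for DNA elements that these factors bind, and the RefSeq promoter windows (build GRCh38.p14) matched all 10 by symbol. The 250 bases before each annotated start were searched on both strands for exact matches. The ER stress response element (ERSE), CCAAT and CCACG with 9 bases between, is bound by ATF6 together with NF-Y. It was found in XBP1 and HSPA5, and in 0.0916% of the 27305 genes with a window. Its variant ERSE-II, ATTGG and CCACG with 1 base between, was found in HERPUD1 and in 0.0659% of genes. The composite element TGATGNAA, bound by ATF4 with C/EBP partners, was found in HERPUD1, ASNS and CHAC1 and in 3.89% of genes. These matches to known elements of the ATF6 and ATF4 arms are shown because the levels of their genes are described next. Each reads 5′ to 3′ along the gene's own strand, with the match in capitals.
XBP1, ERSE, chr22:28800583-28800641, minus strand: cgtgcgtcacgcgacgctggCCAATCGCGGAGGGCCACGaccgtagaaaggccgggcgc
HSPA5, ERSE, chr9:125241371-125241429, minus strand: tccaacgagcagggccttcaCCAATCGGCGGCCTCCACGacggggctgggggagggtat
HERPUD1, ERSE-II, chr16:56932005-56932055, plus strand: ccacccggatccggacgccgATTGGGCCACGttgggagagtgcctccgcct
HERPUD1, composite element on the opposite strand, chr16:56931946-56931993, plus strand: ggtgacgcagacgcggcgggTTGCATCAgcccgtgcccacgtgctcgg
ASNS, composite element, chr7:97872449-97872496, minus strand: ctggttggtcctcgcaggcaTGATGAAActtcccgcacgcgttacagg
CHAC1, composite element on the opposite strand, chr15:40953242-40953289, plus strand: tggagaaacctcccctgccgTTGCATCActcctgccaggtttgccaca

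HERPUD1 is thus the one gene of the 10 with matches to both kinds of element. The UPRE core TGACGTGG, bound by spliced XBP1 and by ATF6, was not matched in the windows of any of the 10 genes and occurred in 0.78% of genes. Since the study concerns G-quadruplexes, the windows were also searched for 4 runs of at least 3 G separated by 1 to 7 bases. This pattern was present on 1 strand or the other in 5 of the 10 genes (ATF4, XBP1, ASNS, TRIB3 and CEBPB) and in 26.3% of all genes with a window. The matches of ATF4, whose level did not pass the test, and of CEBPB, which rose, are shown without flanks. The CEBPB match lies before the second of its 2 annotated starts.
ATF4, G-quadruplex pattern, chr22:39520430-39520451, plus strand: GGGGCGTCAAAGGGAGGGAGGG
CEBPB, G-quadruplex pattern, chr20:50190593-50190614, plus strand: GGGGCGGCCGGGCGGGGGTGGG
A match is a run of letters in a window, and no binding to these sites was analysed here.

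The KD libraries held 14677006 and 15502425 counts and the parent libraries 14601078 to 18049386 counts. The 10 genes together took 0.190% to 0.235% of the counts of a library. APEX1 had 43.3 and 48.3 CPM (counts per 1000000 counts of a scaled library) in KD, against 124, 132 and 135 CPM in parent, a 2.84-fold lower level in KD (edgeR quasi-likelihood adjusted p = 5.9e-05). Of 8 tested markers of cell identity, 4 were called. The mesenchymal markers VIM and CD44 were abundant, with CD44 1.27-fold lower in KD (edgeR adjusted p = 0.00951), a call lost without KD replicate 2 (0.0633). SPARC, a matrix protein gene, had 4.83 ± 1.21 CPM in KD and 0.675 ± 0.224 CPM in parent, 7.15-fold higher in KD (edgeR adjusted p = 0.00134). CDH1, the epithelial cadherin gene, had 7.70 ± 1.37 CPM in KD, against 3.51 ± 0.430 CPM in parent (edgeR adjusted p = 0.00587). The part of these marker differences in the results for the 10 genes was not tested. The oestrogen receptor gene ESR1 was at 0 counts in each library. PGR had 2 counts in a single parent library. ERBB2 was detected at 161 ± 6.26 CPM in KD and 133 ± 11.2 CPM in parent (SD, n = 2 and 3; edgeR adjusted p = 0.0426), a call lost in 5 of the 11 alternatives (adjusted p up to 0.207). PTPRC, CD3E, LYZ and ALB, genes of blood and liver cells, were at 0 in each library. The 37 genes of the mitochondrial genome are listed at 0 in each library and give no measure of RNA quality.

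Of the 10 genes, 1 rose and 1 fell in KD. CEBPB was 1.84-fold higher in KD than in parent, and ATF6 was 1.35-fold lower. The other 8, ATF4 and its targets DDIT3, ASNS, TRIB3 and CHAC1 among them, did not pass the test. In 4 of the 10 (CEBPB, ATF6, XBP1 and DDIT3) the groups did not overlap, against 51.4% of all genes tested. Across all 16198 genes, 21.5% passed an adjusted p of 0.05 in this edgeR test (9.15% as higher in KD, 12.4% as lower). The 2 of 10 called here are thus close to the share of all genes called. The median log2 fold change was 0.23 over the 10 genes and 0.00085 over all genes tested. In bulk RNA, fewer cells with a transcript and less of it per cell cannot be told apart.

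**Figure D1:**
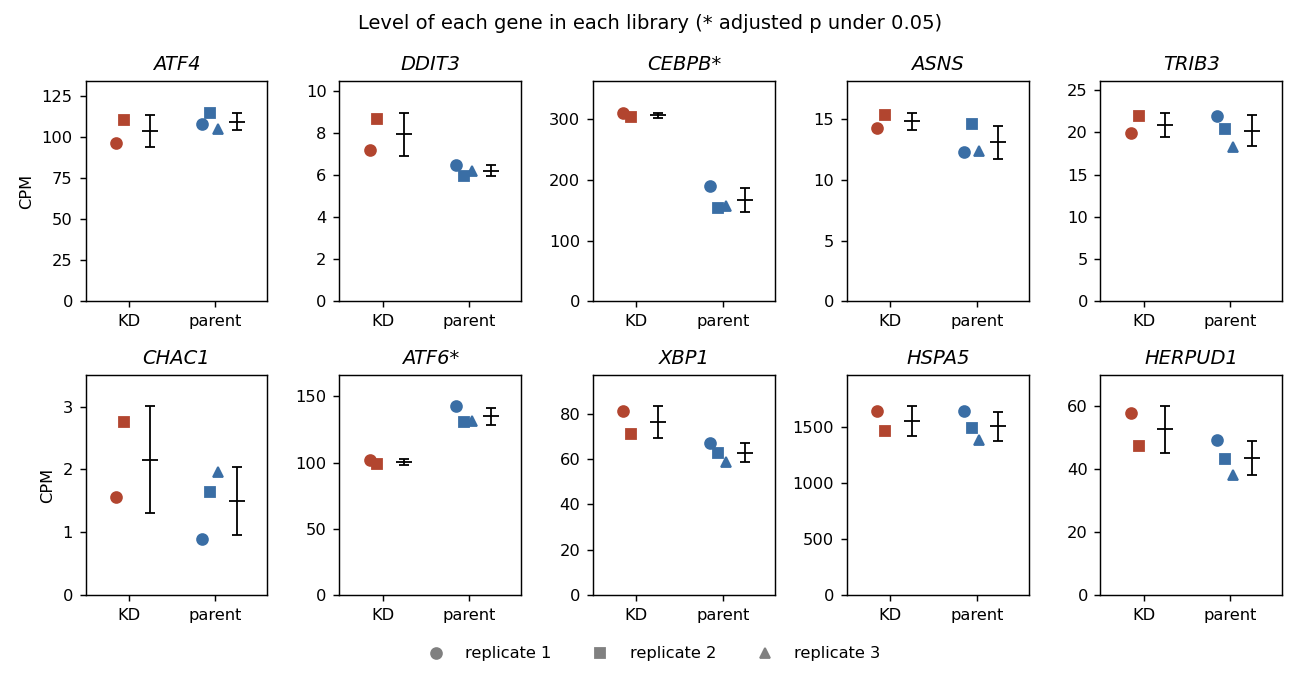
CPM of each of the 10 genes in the 2 KD and 3 parent libraries, 1 panel a gene with its own axis from 0; symbols mark the replicate number, and bars give the mean and SD. CEBPB stands at 304 to 310 CPM in KD and at 154 to 190 CPM in parent, and ATF6 at 99.0 to 102 CPM in KD and at 131 to 143 CPM in parent, while ATF4, HSPA5, HERPUD1, ASNS, TRIB3 and CHAC1 overlap between groups.

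ATF4 encodes the bZIP transcription factor at the head of the integrated stress response. It had 96.6 and 110.6 CPM in KD replicates 1 and 2, against 108, 115 and 105 CPM in parent replicates 1, 2 and 3. The KD values lay on either side of the lowest 2 parent values, so the groups overlapped. The log2 fold change was -0.07 ± 0.075 (SE, edgeR adjusted p = 0.530), with a 95% interval of -0.25 to 0.10. Its sign turned to 0.01 without KD replicate 1. The interval allows a level from 1.19-fold lower to 1.07-fold higher in KD.

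DDIT3 encodes CHOP, a C/EBP family member induced by ATF4 and linked to cell death under lasting stress. It had 106 and 135 counts in KD, against 101, 87 and 111 counts in parent. As levels these were 7.18 and 8.65 CPM in KD, against 6.45, 5.94 and 6.20 CPM in parent. Both KD libraries lay above the 3 parent libraries, which is also the case for 25.3% of all genes tested. The 1.28-fold difference did not pass (log2 fold change 0.35 ± 0.135 SE, 95% interval 0.03 to 0.67, unadjusted p = 0.0352, edgeR adjusted p = 0.112). Without KD replicate 2 the log2 fold change was 0.21 (adjusted p = 0.459). The count of 106 in KD replicate 1 has an exact 95% Poisson interval of 86.8 to 128, which covers counting error only and holds the counts of all 3 parent libraries. In RefSeq the span of DDIT3 overlaps that of MARS1, a tRNA synthetase gene, and the use of strand in counting is not stated, so reads in the overlap may be shared. MARS itself stood at 119 ± 5.95 CPM in KD against 113 ± 6.01 CPM in parent (edgeR adjusted p = 0.481; picked after its values were seen).

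CEBPB encodes C/EBP-beta, a bZIP factor that pairs with ATF4 and CHOP and that also drives inflammatory and differentiation genes. It had 4580 and 4743 counts in KD, against 2973, 2256 and 2823 counts in parent. The levels were 310 and 304 CPM in KD, against 190, 154 and 158 CPM in parent. The KD libraries differed from each other by 1.02-fold, and the lower of them lay well above the highest parent library. The log2 fold change was 0.88 ± 0.090 (SE, edgeR adjusted p = 0.001), with a 95% interval of 1.58-fold to 2.13-fold higher in KD. CEBPB ranked 482nd of 16198 genes from the highest fold change. It passed in each of the 11 alternatives, with a log2 fold change of 0.82 to 0.97 and an adjusted p of at most 0.00777. In RefSeq an antisense RNA, CEBPB-AS1, shares its span, and without stated strand the reads of both cannot be told apart.

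ASNS, asparagine synthetase, is an enzyme whose gene is a standard readout of ATF4. It had 14.3 and 15.3 CPM in KD, against 12.3, 14.6 and 12.3 CPM in parent. Parent replicate 2 lay between the 2 KD libraries, so the groups overlapped. On the log2 scale the difference was 0.18 ± 0.113 (SE, edgeR adjusted p = 0.309), with an interval of -0.09 to 0.45. In RefSeq its span overlaps those of the lncRNA CZ1P-ASNS and of 2 pseudogenes, SNRPCP9 and RPS3AP29.

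TRIB3 encodes a pseudokinase induced by ATF4 and CHOP that inhibits AKT and dampens ATF4 itself. Its levels were 19.9 and 21.9 CPM in KD, against 21.97, 20.4 and 18.2 CPM in parent. Both KD values lay inside the range of the parent libraries. Its log2 fold change was 0.05 ± 0.103 (SE, edgeR adjusted p = 0.769), and the interval of -0.19 to 0.30 allows 1.14-fold lower to 1.23-fold higher in KD. The sign turned without KD replicate 2 or parent replicate 3 (-0.02 in each case).

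CHAC1 encodes a glutathione-degrading enzyme of the ATF4 and CHOP axis and had the fewest counts of the 10. It had 23 and 43 counts in KD, against 14, 24 and 35 counts in parent. The groups overlapped, and the 2 KD libraries differed from each other by 1.77-fold and the parent libraries by 2.19-fold in CPM. The exact Poisson intervals of the KD counts, 14.6 to 34.5 and 31.1 to 57.9, overlap. The log2 fold change of 0.52 ± 0.392 (SE, edgeR adjusted p = 0.397) had the widest interval of the 10, from 1.33-fold lower to 2.74-fold higher. Single libraries moved it, to 0.05 without KD replicate 2, 0.25 without parent replicate 1 and 0.86 without KD replicate 1.

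ATF6 encodes the membrane-bound sensor whose cleaved form turns on ER chaperone genes. It had 1504 and 1544 counts in KD, against 2232, 1914 and 2359 counts in parent. The levels were 102 and 99.0 CPM in KD, against 143, 131 and 132 CPM in parent. Both KD libraries lay below all 3 parent libraries, as for 26.1% of genes tested, and they differed from each other by 1.03-fold. Its log2 fold change was -0.43 ± 0.058 (SE, edgeR adjusted p = 0.00308), with an interval of 1.22-fold to 1.48-fold lower in KD. ATF6 passed in each of the 11 alternatives, at -0.46 to -0.39 on the log2 scale and an adjusted p of at most 0.0242. ATF6 was thus 74.3% of the parent level in KD, and ranked 2152nd of 16198 genes from the lowest fold change. Its span in RefSeq overlaps those of the lncRNA LOC124904444 and the pseudogene LOC100422526, and the use of strand in counting is not stated.

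XBP1 encodes the transcription factor whose mRNA IRE1 splices. It had 81.1 and 71.1 CPM in KD, against 66.9, 62.7 and 58.5 CPM in parent. Both KD libraries lay above the parent libraries, and KD replicate 2 exceeded parent replicate 1 by a margin smaller than the gap between the KD libraries. The 1.21-fold difference did not pass (log2 fold change 0.28 ± 0.087 SE, interval 0.07 to 0.49, unadjusted p = 0.0150, edgeR adjusted p = 0.0629). It passed with library totals alone (adjusted p = 0.0491) and without parent replicate 1 (0.0499), and the adjusted p ran between 0.0491 and 0.325 over the alternatives. Without KD replicate 1 its log2 fold change was 0.18. The count covers spliced and unspliced XBP1 together.

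HSPA5 encodes BiP, the main chaperone of the ER lumen and the textbook target of ATF6. Its levels were 1644 and 1459 CPM in KD, against 1643, 1487 and 1386 CPM in parent. The highest library of each group had nearly the same level, and the groups overlapped. The log2 fold change was 0.04 ± 0.086 (SE, edgeR adjusted p = 0.768), and the interval allows 1.12-fold lower to 1.19-fold higher in KD. The sign turned without KD replicate 1 (-0.05) or parent replicate 3 (-0.01). HSPA5 ranked 32nd of 16198 genes by mean CPM, which is not corrected for gene length.

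HERPUD1 encodes an ER membrane protein of the degradation machinery and carries matches to both ERSE-II and the composite element. It had 57.9 and 47.5 CPM in KD, against 49.2, 43.2 and 38.3 CPM in parent. Parent replicate 1 exceeded KD replicate 2, so the groups overlapped. On the log2 scale the difference was 0.27 ± 0.127 (SE, edgeR adjusted p = 0.176), with an interval of -0.03 to 0.58. It was 0.12 without KD replicate 1 and 0.41 without KD replicate 2, so its size depends strongly on the choice of KD library.

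**Figure D2:**
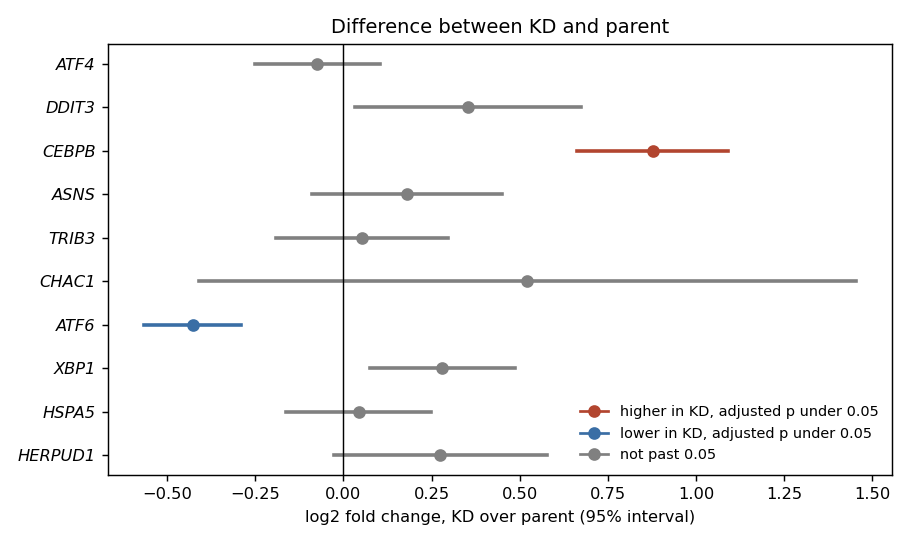
Log2 fold change of each of the 10 genes, KD over parent, with the 95% interval from the edgeR fit; colour marks the genes past an adjusted p of 0.05. CEBPB (0.88) lies to the right of 0 and ATF6 (-0.43) to the left, and CHAC1 has the widest interval, from -0.41 to 1.45.

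With unadjusted p-values, 4 of the 10 genes (CEBPB, ATF6, XBP1 and DDIT3) fell under 0.05 in the edgeR test, against 35.3% of all genes tested. In the authors' deposited table, the log2 fold changes were 0.87 for CEBPB (adjusted p = 8.9e-17) and -0.44 for ATF6 (adjusted p = 8.8e-07), and these were the 2 of the 10 under 0.05. Over all genes, 2693 of the 19816 with an adjusted p there were under 0.05. The authors' deposited table gives XBP1 an adjusted p of 0.0857 and DDIT3 one of 0.553. The sign of APEX1 in that table (-1.52) shows that its fold changes run KD over parent.

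The libraries within a group also differed from each other, and in KD 2 sets of the 10 genes did so in opposite directions, a pattern noticed after the values were seen. XBP1, HSPA5 and HERPUD1 were each higher in KD replicate 1 than in KD replicate 2, by 1.14-fold, 1.13-fold and 1.22-fold. They are the 3 genes with an exact match to ERSE or ERSE-II in the windows searched, and inexact matches were not searched for. All 3 were also highest in parent replicate 1 and lowest in parent replicate 3, as was TRIB3. Of the 10 genes, 7 were highest in parent replicate 1, against 39.3% of all genes tested. Lowest in parent replicate 3 were 5 of the 10, against 34.9% of all genes tested. ATF4, DDIT3, ASNS, TRIB3 and CHAC1 were each higher in KD replicate 2, by 1.14-fold, 1.21-fold, 1.07-fold, 1.10-fold and 1.77-fold. In the parent group these 5 genes had no common highest or lowest library. The exact 95% Poisson intervals of their KD counts overlapped for DDIT3, ASNS, TRIB3 and CHAC1, but not for ATF4. In the first set those of XBP1 overlapped, but not those of HSPA5 or HERPUD1. These intervals are of raw counts, not scaled for the depth of each KD library. CEBPB and ATF6, the 2 genes that passed the test, differed between the KD libraries by 1.02-fold and 1.03-fold.

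Wider lists of the same pathways also differed between the KD libraries. Of 28 ER chaperones and folding enzymes, 26 were higher in KD replicate 1 than in KD replicate 2, against 49.9% of all genes tested. In the parent group 20 of the 28 were highest in parent replicate 1, against 39.3% of all genes. Of 17 amino acid synthesis and uptake targets of ATF4, 15 were higher in KD replicate 2, and of 13 tRNA synthetases with XPOT 12 were, against 49.0% of all genes. Of these 2 lists, 11 and 10 genes were lowest in parent replicate 1, against 34.3% of all genes. The other lists went either way, and the other ATF4 and CHOP targets went in the direction of the chaperones. Of the other ATF4 and CHOP targets, 16 of 21 were higher in KD replicate 1 and 14 were highest in parent replicate 1. Of the degradation and translocation genes, 22 of 32 were higher in KD replicate 1, but in the parent group 10 were highest and 15 lowest in parent replicate 1. Of the sensors, 12 of 17 were higher in KD replicate 1 and 10 were highest in parent replicate 1. Of the eIF2 genes, 15 of 19 were higher in KD replicate 2 and 10 were lowest in parent replicate 1. Of the bZIP partners, 8 of 19 were higher in KD replicate 1. The median difference was small, at 0.11 on the log2 scale for the chaperones and -0.08 and -0.09 for the amino acid and synthetase lists, beside 0.0047 for all genes. The part of this difference between libraries in the results for XBP1, HERPUD1 and HSPA5 was not tested beyond leaving out each library.

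**Figure D3:**
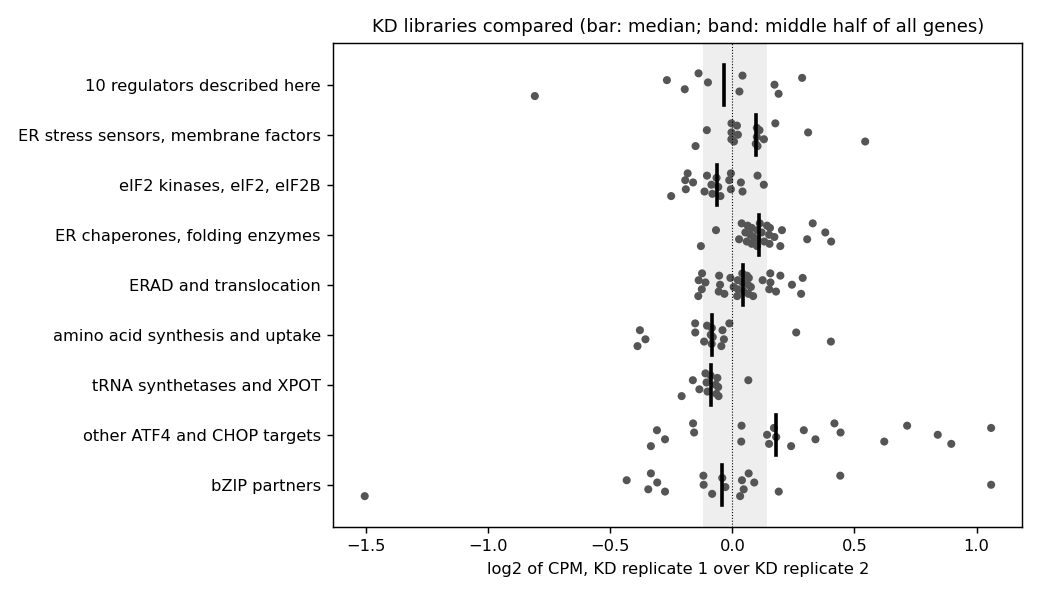
Log2 ratio of CPM in KD replicate 1 over KD replicate 2 (0.5 added to each count) for the genes of each list; each point is a gene, the bar is the median of the list, and the grey band spans the 25th to 75th percentile of all genes tested. ER chaperones lie to the right (26 of 28 above 0), and tRNA synthetases (12 of 13) and amino acid genes (15 of 17) to the left.

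The other genes of these pathways were read from 8 lists written from general knowledge. Earlier results of these data were known when the lists were written, so their shares of calls are not independent of the data. Over their 160 distinct tested genes, 15 rose and 32 fell in KD (29.4%, against 21.5% of all genes tested). Their median log2 fold change was -0.05. The sensors and membrane-bound factors beside ATF6 moved both ways, 4 up and 3 down of 17 (median 0.08), 41.2% of the list. The count up was 2 when parent replicate 2, parent replicate 3 or KD replicate 1 was left out, and the count down 1 without KD replicate 2 or parent replicate 2. ERN1, which encodes IRE1, was at 25.2 CPM in KD against 33.8 CPM in parent (edgeR adjusted p = 0.0237), a call that ended when parent replicate 2 (0.0746), parent replicate 3 (0.0666) or KD replicate 2 (0.120) was left out. EIF2AK3, which encodes PERK, was at 32.1 ± 1.62 CPM in KD and 32.8 ± 1.33 CPM in parent (adjusted p = 0.780). Both were picked after their values were seen. ATF6B, the paralogue of ATF6, rose 1.21-fold, a call lost without KD replicate 1 (adjusted p = 0.150), parent replicate 2 (0.0855) or parent replicate 3 (0.0526). CREB3L3, a related membrane-bound factor known from liver, was 3.13-fold higher at 14.9 ± 3.93 CPM in KD and 4.77 ± 1.30 CPM in parent. MAP3K5 (ASK1), a kinase downstream of IRE1, was 1.83-fold lower, and BAK1, a cell death effector, was 1.44-fold higher.

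Upstream of ATF4, 1 of 19 genes of the eIF2 kinases, eIF2 and its exchange factor rose and 1 fell (median 0.01). These are 10.5% of the list, against 21.5% of all genes tested. The eIF2 subunit gene EIF2S3 was 1.24-fold higher in KD. EIF2AK4, the GCN2 kinase that reads amino acid shortage, was 1.26-fold lower, a call lost in 1 alternative, without KD replicate 1 (adjusted p = 0.0503).

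Of the 28 ER chaperones and folding enzymes, which hold many targets of ATF6 and XBP1, 1 rose and 7 fell (median -0.11). These 8 are 28.6% of the list, against 21.5% of all genes tested. The count lower was 1 without KD replicate 2, 2 without parent replicate 2 and 11 with the replicate block, and the count higher was 0 in each fit with 1 library left out and with no filter on low counts. DNAJC10, an ER reductase, was 1.51-fold lower at 121 ± 6.05 CPM in KD against 183 ± 1.18 CPM in parent (edgeR adjusted p = 0.000438). The oxidases of disulphide formation ERO1L and ERO1LB were 1.30-fold and 1.56-fold lower and the isomerase FKBP14 1.29-fold lower. Without KD replicate 2 the calls on ERO1L, ERO1LB and FKBP14 were lost (adjusted p = 0.109, 0.0918 and 0.101). ERO1L and ERO1LB also lost theirs without parent replicate 2 (0.0560 and 0.0750), and FKBP14 without KD replicate 1 (0.0589). Of 32 genes of ER-associated degradation and translocation, the list nearest to HERPUD1 in role, 1 rose and 4 fell (median -0.05), 15.6% of the list. EDEM1, which hands glycoproteins to degradation, was 1.49-fold lower, the ubiquitin-conjugating enzyme UBE2J1 1.33-fold lower and the translocon subunit SSR3 1.39-fold lower. VCP, the extracting ATPase, was 1.15-fold higher. The call on VCP was lost with no filter on low counts (adjusted p = 0.0804) and without KD replicate 1 (0.106), KD replicate 2 (0.168), parent replicate 1 (0.0712) or parent replicate 2 (0.0946).

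Genes downstream of ATF4 and CHOP also split, although ATF4, DDIT3, ASNS, TRIB3 and CHAC1 did not pass. Of 17 tested amino acid genes, 3 rose and 3 fell (median -0.06), 35.3% of the list against 21.5% of all genes tested. The count higher was 0 without parent replicate 2 and 1 without KD replicate 1, KD replicate 2 or parent replicate 3. The cystine transporter SLC7A11 had 7.90 ± 0.345 CPM in KD and 39.3 ± 8.54 CPM in parent, a 4.97-fold lower level in KD. PSAT1, of serine synthesis, was 1.52-fold lower and the transporter SLC1A4 1.45-fold lower, while the glutamine transporter SLC1A5 was 1.31-fold higher. PSAT1 lost its call when KD replicate 1 (adjusted p = 0.0752) or parent replicate 2 (0.0608) was left out. So did SLC1A5 for KD replicate 1 (0.0547), KD replicate 2 (0.0888) or parent replicate 2 (0.0662). PHGDH, the first enzyme of serine synthesis, had 5 counts in 1 parent library and 0 in the other 4 libraries, and was not tested; it was picked after its values were seen. Of 13 tRNA synthetases with XPOT, 1 rose and 4 fell (median -0.09), 38.5% of the list. The count lower was 2 without KD replicate 1 or parent replicate 2. NARS was 1.75-fold lower and TARS 1.38-fold lower, LARS was 1.18-fold lower and CARS 1.20-fold higher. Leaving out KD replicate 1 ended the calls on LARS (adjusted p = 0.106) and CARS (0.0826), as did leaving out parent replicate 2 (0.0654 and 0.0504) and, for LARS, KD replicate 2 (0.0518).

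Of 21 other ATF4 and CHOP targets, 3 rose and 8 fell (median -0.15), 52.4% of the list against 21.5% of all genes tested. None was higher without KD replicate 1, and 4 were lower without KD replicate 2 or parent replicate 2. The stress cytokine GDF15 was 6.53-fold lower from low counts, with 19 and 11 counts in KD, against 147, 87 and 76 counts in parent. The log2 fold change of GDF15 ranged from -3.20 without KD replicate 1 to -2.33 without KD replicate 2. VEGFA was 1.97-fold lower. The death receptor gene TNFRSF10B, a CHOP target, was 1.55-fold lower at 146 ± 12.8 CPM in KD, with 225 ± 20.8 CPM in parent (edgeR adjusted p = 0.00386). BCL2L11 (BIM), another CHOP target, was 1.53-fold higher, with the call lost without KD replicate 1 (adjusted p = 0.0544). Several of these genes also answer to other factors, VEGFA to hypoxia among them.

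CEBPB was not the only C/EBP gene to rise. Of 19 tested bZIP partners, 1 rose and 4 fell (median -0.06), 26.3% of the list against 21.5% of all genes tested. The gene that rose was CEBPD, which encodes C/EBP-delta. Leaving out parent replicate 2, parent replicate 3 or KD replicate 1 brought the count lower to 2. CEBPD was 1.66-fold higher, at 49.7 ± 0.953 CPM in KD against 30.0 ± 3.24 CPM in parent (edgeR adjusted p = 0.00248). CEBPG, the partner through which ATF4 binds many targets, was at 22.2 ± 0.906 CPM in KD and 25.6 ± 2.41 CPM in parent (adjusted p = 0.185; picked after its values were seen). ATF3 was 2.65-fold lower, from 36 and 18 counts in KD against 70, 76 and 82 counts in parent, and its call was lost without parent replicate 2 (adjusted p = 0.0681). BATF3 was 5.14-fold lower, from 6 and 19 counts in KD against 73, 55 and 77 counts in parent. Without KD replicate 1 and without KD replicate 2, the log2 fold changes were -2.04 and -0.96 for ATF3 and -1.80 and -3.36 for BATF3. JUN was 1.18-fold lower, a call lost without KD replicate 1 (adjusted p = 0.0911), KD replicate 2 (0.0651) or parent replicate 3 (0.0513).

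**Figure D4:**
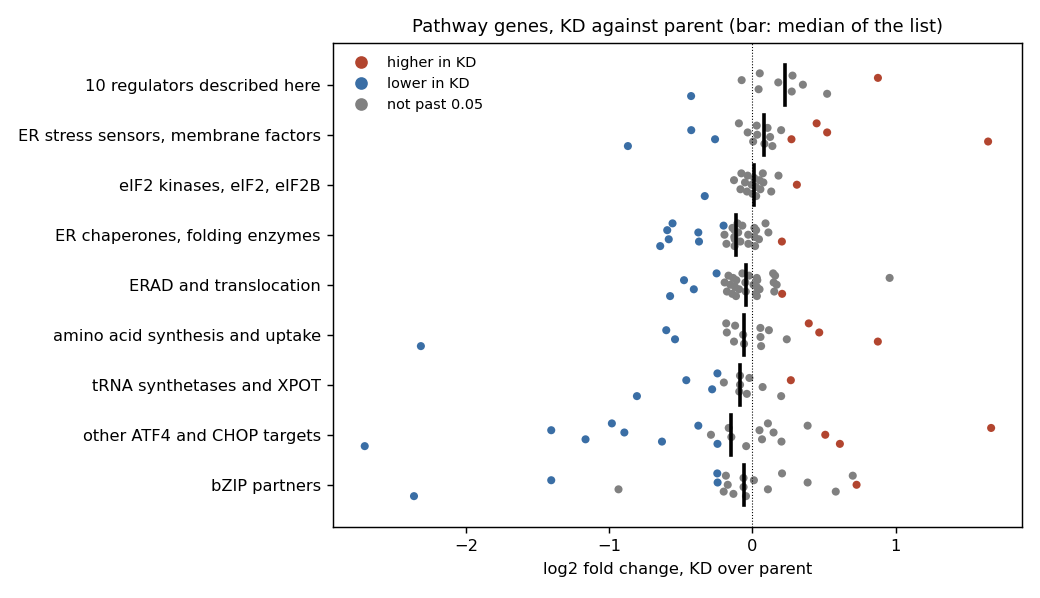
Log2 fold change, KD over parent, of the tested genes in each list; each point is a gene, coloured where its adjusted p is under 0.05, and the bar is the median of the list. The 10 regulators have a median of 0.23, the chaperones of -0.11 and the other ATF4 and CHOP targets of -0.15, with GDF15 at -2.71 farthest to the left.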

How the data were processed

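Column-purified total RNA was used, per the labels' protocols. A sequencing core made the libraries. Expected counts, per gene and per transcript, were deposited as whole numbers. STAR, DESeq2 and hg19 are named, with no version, in the submitters' processing notes. For the counter, annotation and strand setting the entry is: not given in the sources used here. Gene and transcript totals were equal in each library. No transcript was tested, since no table used here pairs transcripts with genes. Per the file headers, the authors' comparison table gives a mean normalised signal, log2 fold change, Wald score and p-value. The 2 ChIP libraries were not analysed here.

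Genes were filtered with filterByExpr (minimum count 10, total 15), scaled by TMM and tested with the quasi-likelihood fit of edgeR 4.0.16 in R 4.3.3, KD against parent, group as the only term (3 residual degrees of freedom), with Benjamini-Hochberg adjustment over all 16198 genes. SE is the size of the log2 fold change over the root of F. Values are mean ± SD CPM. Libraries within a group differed beyond sampling noise (chi-square per degree of freedom at least 3.96). Alternatives used DESeq2 1.42.0 and limma 3.58.1, other scaling, no filter, a replicate block and each library left out. The code was tested on simulated counts. The 10 genes and the lists were chosen with earlier results of these data known. Named genes are the 10, APEX1 and, per list, up to 4 called genes with the smallest adjusted p, or the 2 most abundant where none is called; cell identity markers are named as a check, and other genes are marked where they appear. Promoter sequences are RefSeq's (GRCh38.p14), a build other than that of the counts, and were joined by symbol only. CPM does not correct for gene length, so statements on the levels of different genes, such as the rank of HSPA5, are rough.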

Additional observations from a re-analysis of the deposited data

How the results depend on the processing

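The calls on CEBPB and ATF6 held in all 11 alternatives, and 2 of the 10 genes passed in 9 of them. With library totals alone, 2 genes were higher (XBP1 added). Leaving out 1 library at a time gave 1 to 2 genes higher, 1 lower and 2 to 3 called. Over all genes the count of calls was 1915 to 3332 (578 to 1384 higher, 1326 to 1948 lower) with 1 library left out, against 3485. The counts were 1915 and 2152 with KD replicate 1 or 2 left out and 2030 with parent replicate 2 left out. Over the pathway lists it was 23 to 43 (5 to 12 higher, 17 to 31 lower), against 47. With KD replicate 1 or 2 left out they were 27 and 28, and with parent replicate 2 left out 23. Genes near no difference changed sign. The log2 fold change of ATF4 turned to 0.013 without KD replicate 1 (from -0.18 to 0.013 with 1 library left out). HSPA5 turned to -0.052 without KD replicate 1, -0.013 without parent replicate 3 and -0.013 with the replicate block (-0.052 to 0.13 with 1 library left out). TRIB3 turned to -0.020 without KD replicate 2, -0.019 without parent replicate 3 and -0.020 with the replicate block (-0.020 to 0.11 with 1 library left out). EIF2AK3 turned to 0.018 without KD replicate 2 (-0.091 to 0.018 with 1 library left out). The cause was not tested. With the replicate block, 3940 genes passed, 2 of the 10 among them, with 1 residual degree of freedom. The numbers are shared by 2 pairs, whose deviations from the group mean correlated at 0.12 and -0.003 across genes. With 2 KD libraries, the deviation of each is the negative of the other's, so these values cannot decide whether the numbers pair the samples. The main fit does not pair them. For the ER chaperone, amino acid and tRNA synthetase lists, the counts of genes higher in KD replicate 1 were the same under both other scalings. The other lists and the 10 genes were not recounted.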
